A study of Rattus norvegicus with 10 samples.

Results

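The interferon response genes are the genes that cells switch on when they sense interferon, a secreted alarm protein of antiviral defence. Their transcripts were read here in the mammary gland of rats on 3 diets. Members were the genes of a list of 37 named interferon response genes, plus every gene whose symbol starts with Irf, Ifit, Oas, Gbp or Psmb8 to Psmb10, with Irf2bpl left out. Membership goes by symbol and uses no measured value, while the probe set read for each gene is its brightest on these arrays. The list was chosen with earlier results of these data known. It found 40 genes among the 10411 that the array names. Of these, 31 came from the list and 9 from the symbol starts: Ifitm1, Ifitm2, Ifitm10, Irf2, Irf2bp1, Irf2bp2, Irf3, Irf8 and Oas1b. Gbp5, Ifi44, Ifih1, Ifit2, Isg15 and Xaf1 matched no probe set that names a single gene. The symbol starts also brought in genes of other families, since the Ifitm membrane proteins are unrelated to the Ifit proteins and Irf2bp1 and Irf2bp2 are corepressors that bind IRF2.

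Female Sprague-Dawley rats fed 1 of 3 purified diets were studied at postnatal day 50. The diets are labelled CAS, SPI and GEN, and the series title gives the last as genistein, a soy isoflavone. There were 3 CAS arrays (numbered 1, 2 and 3), 4 SPI arrays (2, 3, 4 and 5) and 3 GEN arrays (1, 3 and 5). Each array read RNA pooled from the fourth mammary gland of 2 animals, and replicate targets were prepared from each pool, with no label saying which arrays share one. The p-values below therefore measure the spread between arrays, part of which may be technical. The labels name the source as mammary epithelial cells, while the 5 adipocyte markers that were bright enough to be tested had a mean log2 signal of 10.88 to 11.29 on every array. Plin1 and Lep, the other adipocyte markers on the array, were too dim to be tested. The design text also mentions colon tissue, which no sample label does.

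Interferons of type I act through a receptor pair and the kinases Jak1 and Tyk2, and interferon gamma through its own receptor with Jak1 and Jak2. The kinases phosphorylate STAT proteins. A complex of STAT proteins with IRF9 binds the interferon-stimulated response element (ISRE), and STAT dimers bind the gamma-activated site (GAS). IRF7 raises further interferon production. Resting cells can transcribe these genes at a tonic level, and resident macrophages and lymphocytes are among the cells that carry them. Here 14 of the 37 members bright enough to be tested had a mean signal over 1000, where array medians were 222.8 to 256.7.

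The promoters show which members carry the response element close to their start. RefSeq promoter windows (rat build GRCr8, from 250 bases before to 50 after the start) were found for 35 of the 40 members, with none for Ifit1, Ifitm1, Irf2, Mx2 and Usp18. The ISRE was searched as GAAANNGAAA or TTTCNNTTTC, which are the same element on opposite strands. It stood in 20 of 35 member windows (57.1%), against 1034 of 27457 windows of all genes (3.77%). The GAS, searched as TTCNNNGAA on both strands, stood in 11 of 35 member windows (31.4%) against 8.68% of all windows. Both elements stood in 5 member windows (14.3%) and in 0.524% of all windows, and they overlapped in 1 member, Bst2 (2.86%, against 0.0473%). A match is a description of letters in this window, not evidence of binding.

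The stretches below are those of the members with an unadjusted p under 0.05 or diets without overlap in which the element lay before the start site. Its letters are in capitals.
Irf7, chr1:205800068-205800107, minus strand: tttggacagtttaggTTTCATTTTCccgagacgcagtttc
Eif2ak2, chr6:21941123-21941153, plus strand: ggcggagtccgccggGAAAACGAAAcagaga
Isg20, chr1:142239952-142239991, plus strand: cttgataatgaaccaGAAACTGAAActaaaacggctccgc
Gbp2, chr2:234005681-234005720, plus strand: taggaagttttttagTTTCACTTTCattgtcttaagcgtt
Ifitm2, chr1:205482357-205482396, minus strand: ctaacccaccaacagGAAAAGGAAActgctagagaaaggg
Psmb10, chr19:50743293-50743380, minus strand: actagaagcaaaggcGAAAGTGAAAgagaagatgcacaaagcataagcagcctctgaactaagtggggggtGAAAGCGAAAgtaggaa
The element began 69 bases before the start of Irf7, 16 before that of Eif2ak2, 92 before that of Isg20, 31 before that of Gbp2 and 33 before that of Ifitm2. Psmb10 carried it in 2 places, 73 and 17 bases before the start.

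Further stretches are shown because the element is doubled there, in runs that share a GAAA, and because the Oas1a and Oas1b pair lets near copies be compared.
Oas1a, chr12:41330410-41330455, plus strand: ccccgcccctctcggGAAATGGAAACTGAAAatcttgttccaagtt
Oas1b, chr12:41395881-41395926, minus strand: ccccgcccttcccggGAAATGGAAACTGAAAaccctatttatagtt
Bst2, chr16:18255068-18255113, minus strand: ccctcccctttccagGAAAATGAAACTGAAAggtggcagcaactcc
Tapbp, chr20:4967878-4967918, minus strand: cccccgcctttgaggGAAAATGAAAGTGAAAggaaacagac
Oas1a and Oas1b carried the same capital letters, on opposite strands of chromosome 12.

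By role, the ISRE stood in 10 of 14 antiviral effectors, in 5 of 6 genes of the immunoproteasome and peptide loading, in Gbp2, in 1 of 2 chemokines (Cxcl10) and in 2 of 4 sensors and regulators (Lgals3bp and, after the start, Dtx3l). Among the 8 transcription factors with a window only Irf7 held it. The GAS stood in Irf1, Irf2bp1, Irf8 and Irf9 among the factors, and in Bst2, Ifitm3, Oas1a, Oas1b, Psmb8 and Samhd1. It also stood in the chemokine Cxcl9, there after the start. The windows of Irf2bp2, Irf3, Ifitm10, Mx1 and Parp9, which are described below, held no ISRE or GAS match.

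**Figure D1:**
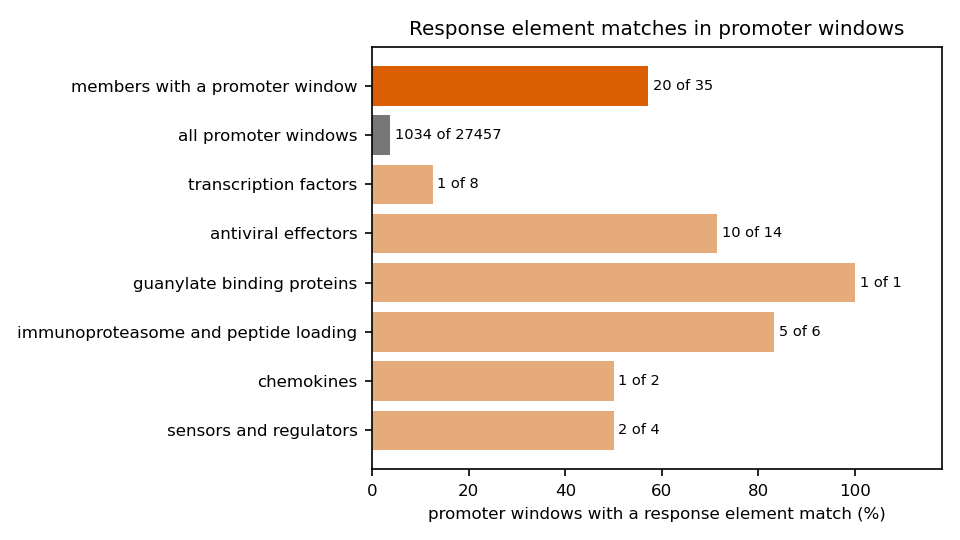
Share of promoter windows that hold the ISRE letters, in percent, for members, for all genes and for each role group, with counts beside the bars. Members reach 57.1% and all windows 3.77%, with the transcription factors at 1 of 8 and the antiviral effectors at 10 of 14.

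Signals are the deposited MAS5 values on a linear scale, and each gene is read by its brightest probe set. Of the 40 members, 37 were among the 9520 probe sets bright enough to be tested, and Irf2, Oas1b and Samhd1 fell below the filter. A value of log2 is a difference of mean log2 signal between 2 diets, so that 1 is a doubling, and it is given with its standard error. Tests were limma's moderated test with Benjamini-Hochberg adjustment over all 9520 probe sets, and a gene counts as called when its adjusted p is under 0.05. The share of all tested probe sets that was called was 0% in each of the 3 comparisons, and no member was called in any of them. The half-width of the 95% interval of a difference had a median of 0.41 log2 in both comparisons with SPI, and of 0.44 for GEN against CAS. That interval is for a single probe set without adjustment, so larger differences could also fail to be called. Differences past 1 log2 were found for 54 probe sets (SPI against CAS), 64 (GEN against CAS) and 70 (SPI against GEN), with none called. None of the differences below passed the test, and they are given as values.

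SPI was compared with CAS to read the effect of that diet on the gland. The members lay lower on SPI more often than not: 24 of 37 (64.9%) had a difference below 0, as did 52.3% of all tested probe sets. The median member differed by -0.15, and the median of all probe sets by -0.01. The median stood at -0.05 without CAS 1, at -0.06 without SPI 2 and at -0.08 without CAS 3, so that it rests on few arrays. Differences ran from -0.67 for Irf7 to 0.91 for Ifitm10, and no adjusted p was below 0.75. An unadjusted p under 0.05 was reached by 6 members, 5 lower and 1 higher, which is 16.2% of 37 against a background of 4.82%. That count was 3 without CAS 3. The diets did not overlap in 4 members, 2 lower and 2 higher (10.8%, against 4.6% of all tested probe sets). The 2 lower were Irf7 and Parp9, from the list. The 2 higher were Irf2bp2 and Ifitm10, which came in by symbol start. Ifitm10 was also the 1 higher member at an unadjusted p under 0.05.

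GEN was compared with CAS to read the diet that the series title gives as genistein. Members were divided about evenly, with 17 of 37 below 0 (45.9%, against 52.1% of all tested probe sets) and a median of 0.03 beside -0.01 for all probe sets. With 1 array left out at a time, that median ran from -0.11 (without GEN 3) to 0.04, and its sign is not settled. An unadjusted p under 0.05 was found for 2 members, 1 higher and 1 lower (5.41%, background 5.89%), which is a share near the background. Without CAS 2 there were 6. The diets did not overlap in 6 members, 3 in each direction (16.2%, background 11.1%). No adjusted p was below 0.824. This comparison and the one before share the CAS arrays.

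SPI against GEN set both diets beside each other. Here 21 of 37 members lay below 0 (56.8%, background 50.8%), with a median of -0.10 beside 0.00 for all probe sets. The median was -0.04 without GEN 1. It was also -0.04 with the arrays centred on their medians, where the median of all probe sets rose to 0.057. For 3 members the unadjusted p was under 0.05, all lower on SPI (8.11%, background 7.95%), a share near the background. The count was 1 without SPI 2 or without GEN 3, and 7 without SPI 5. The diets did not overlap in 5 members, 3 lower and 2 higher on SPI (13.5%, background 8.5%), and no adjusted p was below 0.558.

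**Figure D2:**
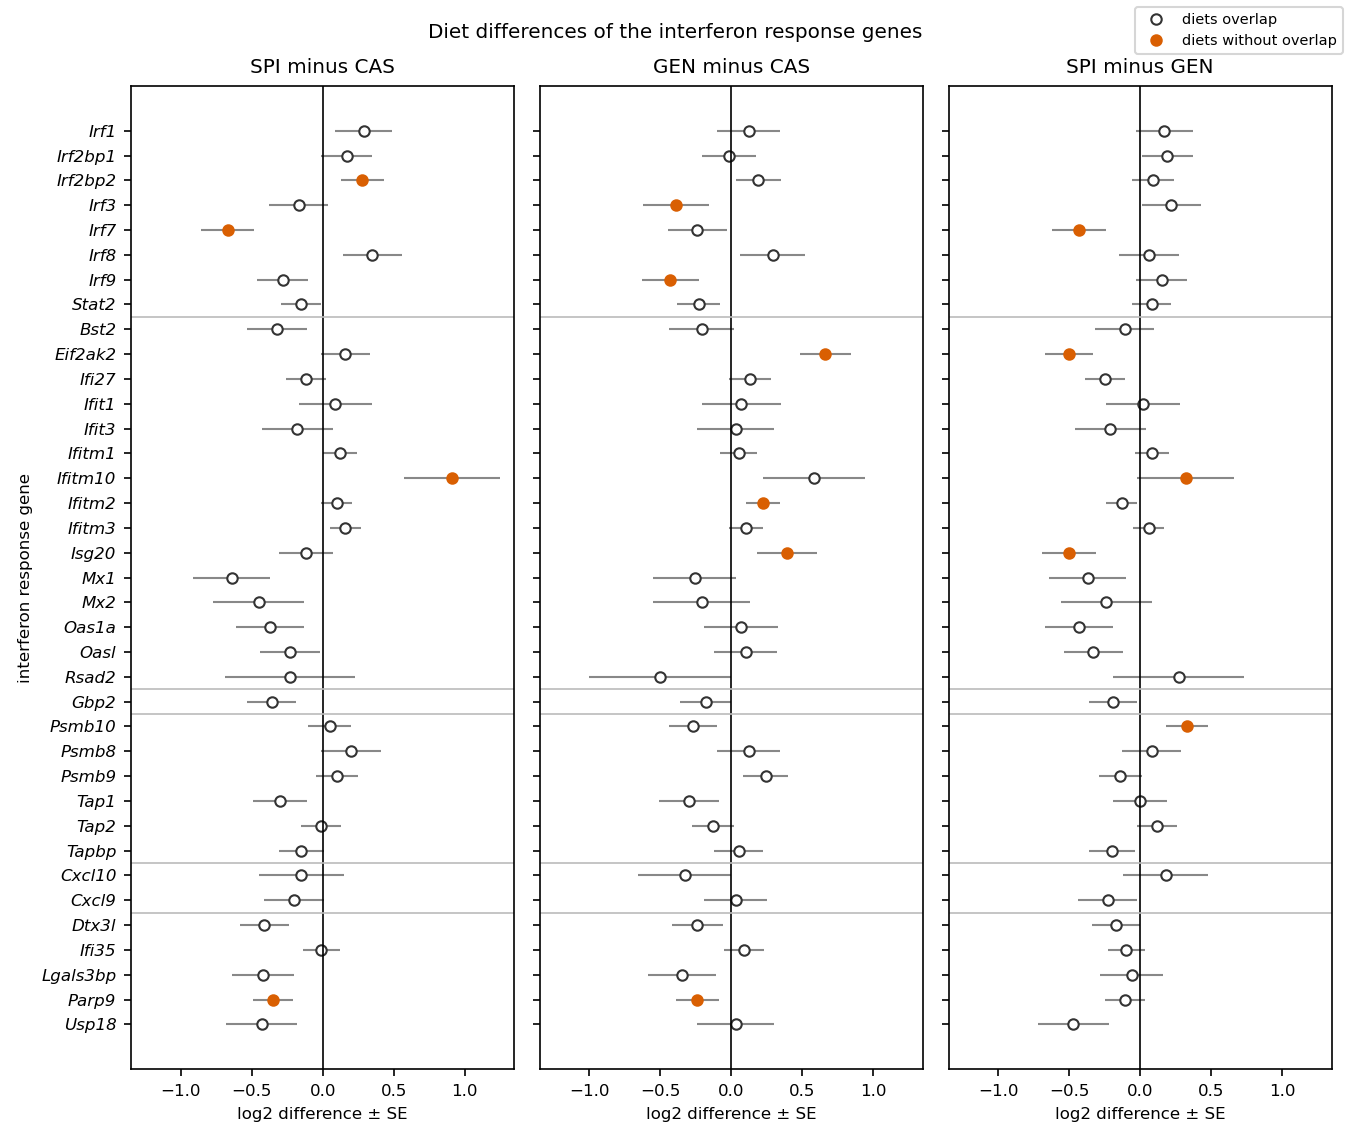
Difference in mean log2 signal between diets (x axis) for the 37 tested members, by role from transcription factors at the top to sensors and regulators at the bottom. Bars are ± the standard error and filled points mark diets without overlap, of which there are 4, 6 and 5. The largest are Ifitm10 at 0.91 and Irf7 at -0.67 for SPI minus CAS, and Eif2ak2 at 0.66 for GEN minus CAS.

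Among the transcription factors, Irf7 stood lowest on SPI. IRF7 is the factor that amplifies interferon production once a cell has been alerted, and it is itself induced by interferon. Its signal was 2610.0, 1658.4 and 2648.0 on the CAS arrays, 1109.8, 1343.1, 1644.3 and 1643.4 on the SPI arrays, and 1776.0, 2153.6 and 1803.9 on the GEN arrays. Every SPI array lay below every CAS and every GEN array, although CAS 2 was only just above SPI 4, and CAS and GEN overlapped. The diet means were 2305.5 ± 560.7 (SD, n = 3), 1435.2 ± 259.1 (n = 4) and 1911.2 ± 210.4 (n = 3). SPI minus CAS was -0.67 ± 0.19, a fold of 0.63, with an adjusted p of 0.75 by limma. SPI minus GEN was -0.43 ± 0.19 (adjusted p = 0.616). GEN minus CAS was -0.24 ± 0.21.

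IRF9 is the DNA-binding partner of STAT2. Irf9 read 310.3, 299.4 and 467.0 on CAS, 306.7, 291.9, 303.4 and 259.6 on SPI, and 279.5, 271.5 and 235.3 on GEN. The GEN arrays were all below the CAS arrays, and CAS 3 stood far above the other 9 arrays. GEN minus CAS was -0.43 ± 0.20 (adjusted p = 0.825), and -0.22 without CAS 3. IRF3 is the latent factor that first responds to viral nucleic acid. Irf3 read 769.0, 825.1 and 959.5 on CAS, 880.4, 895.8, 863.9 and 467.6 on SPI, and 652.1, 704.0 and 590.2 on GEN. Its GEN arrays lay below its CAS arrays, with GEN minus CAS at -0.39 ± 0.23 (adjusted p = 0.825), while SPI 5 was the lowest array of all.

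The corepressor Irf2bp2 lay in the other direction on SPI. It read 1663.8, 1616.5 and 1838.1 on CAS, 2198.7, 1992.4, 1898.7 and 2191.3 on SPI, and 2091.8, 1498.7 and 2347.1 on GEN. SPI was above CAS on every array, by 0.28 ± 0.15 (adjusted p = 0.987), and GEN spanned both. IRF1 drives many genes of the response to interferon gamma, antigen-presentation genes among them. Irf1 read 3169.7, 3889.6 and 3607.7 on CAS, 5435.7, 4628.5, 4696.4 and 2990.6 on SPI, and 4627.5, 4222.4 and 2908.0 on GEN. The diets overlapped, with SPI minus CAS at 0.29 ± 0.20. The median of the 8 tested factors was 0.01 for SPI minus CAS and -0.12 for GEN minus CAS. Set against GEN, the SPI arrays gave a median of 0.12, with 7 of 8 factors above 0 and Irf7 below. Irf2bp1, Irf8 and Stat2 differed by -0.23 to 0.35 in the 3 comparisons, with overlap throughout. A second tested probe set of Stat2 gave -0.02, -0.61 and 0.59 where the brighter gave -0.15, -0.23 and 0.08, so the 2 readings of that gene differ in size and in the spread between arrays.

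Among the antiviral effectors, Eif2ak2 stood apart on GEN. It encodes PKR, the kinase that halts translation when it meets double-stranded RNA. The signal was 362.0, 336.0 and 411.0 on CAS, 312.4, 453.4, 427.2 and 470.6 on SPI, and 623.7, 524.0 and 604.1 on GEN. The 3 GEN arrays were the 3 highest of the 10, and CAS and SPI overlapped. The means were 369.7 ± 38.1 (SD, n = 3), 415.9 ± 71.3 (n = 4) and 583.9 ± 52.8 (n = 3). GEN minus CAS was 0.66 ± 0.18, a fold of 1.58 (adjusted p = 0.824). SPI minus GEN was -0.50 ± 0.17 (adjusted p = 0.558).

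Isg20, an exonuclease that degrades viral RNA, also had its highest values on GEN. It read 170.6, 171.1 and 195.7 on CAS, 145.8, 161.4, 148.2 and 210.6 on SPI, and 229.4, 242.6 and 229.1 on GEN. All GEN arrays lay above all others. GEN minus CAS was 0.39 ± 0.21 (adjusted p = 0.825), and SPI minus GEN was -0.50 ± 0.19 (adjusted p = 0.566). These signals lie near the dimmest tested probe set, whose geometric mean over the arrays was 162.

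Ifitm2, a membrane protein that blocks virus entry, read 4610.3, 4889.3 and 5021.1 on CAS, 4818.8, 5150.7, 4965.7 and 5825.3 on SPI, and 5198.7, 5996.4 and 5788.1 on GEN. GEN lay above CAS without overlap, by 0.22 ± 0.12 (adjusted p = 0.825). Ifitm10, a distant member of the same family, read 58.1, 186.0 and 168.8 on CAS, 212.7, 203.7, 275.3 and 230.2 on SPI, and 171.5, 191.3 and 186.7 on GEN. SPI lay above both other diets, and CAS 1 was far below the other arrays. Set against CAS, SPI stood at 0.91 ± 0.34 (adjusted p = 0.987), and 0.37 without CAS 1. SPI minus GEN was 0.32 ± 0.34 (adjusted p = 0.81). Ifitm10 had a mean signal of 177.3, the lowest of the tested members and near the dimmest tested probe set.

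Mx1 encodes a GTPase that traps viral nucleocapsids and is a standard readout of type I interferon. It read 228.2, 161.2 and 395.6 on CAS, 188.2, 149.0, 151.6 and 143.6 on SPI, and 237.1, 189.9 and 187.4 on GEN. Its mean signal of 193.9 also lies near that of the dimmest tested probe set. CAS 3 was well above the rest, and the diets overlapped. SPI minus CAS was -0.64 ± 0.27 (adjusted p = 0.987), and -0.29 without CAS 3. Its paralog Mx2 read 283.9, 161.4 and 443.2 on CAS, again highest on CAS 3, and 154.1 to 297.8 on the other 7 arrays.

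Ifi27, a gene often used to score interferon exposure, read 14259.6, 11858.5 and 15676.5 on CAS, 10466.4, 11709.0, 14643.0 and 14827.8 on SPI, and 14385.5, 15915.2 and 15198.5 on GEN. The diets overlapped and the differences ran from -0.25 to 0.13. Of the 15 tested effectors, 9 were below 0 for SPI against CAS (median -0.12), 4 for GEN against CAS (median 0.07) and 10 for SPI against GEN (median -0.21). Bst2, Ifit1, Ifit3, Ifitm1, Ifitm3, Mx2, Oas1a, Oasl and Rsad2 overlapped between diets in every comparison. Short array probes can bind near copies, so that readings of the Ifitm genes, of Oas1a and Oas1b, and of Mx1 and Mx2 may not be fully separate. Oas1b lay below the filter and read 93.6 on CAS 1 and 3.3 to 26.9 on the other arrays.

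Gbp2, a guanylate-binding GTPase that interferon gamma induces and that attacks the vacuoles of intracellular microbes, was the one member of its family. It read 1298.7, 1107.6 and 1222.1 on CAS, 750.6, 1005.8, 878.1 and 1163.8 on SPI, and 1064.9, 1231.7 and 925.0 on GEN. Of the SPI arrays only SPI 5 reached the CAS range. The difference of SPI from CAS was -0.36 ± 0.17 (adjusted p = 0.987).

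The genes of the immunoproteasome and of peptide loading prepare peptides for MHC class I. Psmb8, Psmb9 and Psmb10 replace the catalytic subunits of the standard proteasome, Tap1 and Tap2 carry peptides into the endoplasmic reticulum, and Tapbp bridges them to MHC. Their medians were 0.02, -0.04 and 0.04 in the 3 comparisons. Psmb10 read 912.6, 759.1 and 1149.3 on CAS, 956.7, 989.0, 1063.2 and 853.6 on SPI, and 734.1, 794.7 and 772.8 on GEN. SPI lay above GEN without overlap, by 0.33 ± 0.15 (adjusted p = 0.63). Psmb8 read 929.8, 1152.3 and 1873.5 on CAS, 1322.6, 1258.0, 1672.2 and 1566.7 on SPI, and 1220.2, 1388.0 and 1515.4 on GEN. Its CAS arrays held both the lowest and the highest value of the 10. The other members of the group overlapped in all comparisons, with differences from -0.30 to 0.24. Tap1 and Psmb9 start 457 bases apart on opposite strands. Their differences for GEN against CAS were -0.30 ± 0.21 and 0.24 ± 0.16.

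The chemokines Cxcl9 and Cxcl10 attract T cells through the receptor CXCR3. Cxcl10 read 3923.6, 3422.1 and 2258.0 on CAS, 2059.4, 3277.2, 1944.0 and 4798.8 on SPI, and 2018.0, 3445.9 and 2198.5 on GEN. Both the lowest and the highest arrays were SPI arrays, and all diets overlapped. Cxcl9 read 773.7 to 836.4 on CAS, 557.2 to 1015.8 on SPI and 699.3 to 1086.8 on GEN, with overlap as well. SPI minus CAS was -0.15 ± 0.30 for Cxcl10 and -0.20 ± 0.21 for Cxcl9.

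The sensors and regulators Dtx3l, Ifi35, Lgals3bp, Parp9 and Usp18 were all below 0 for SPI against CAS, with a median of -0.41, and all below 0 for SPI against GEN, with a median of -0.11. Parp9 and Dtx3l form a complex of an ADP-ribosyltransferase and a ubiquitin ligase that strengthens interferon signalling. Their genes start 1214 bases apart and point away from each other. Parp9 read 1757.1, 2063.8 and 1999.3 on CAS, 1596.4, 1645.0, 1667.8 and 1215.1 on SPI, and 1753.6, 1497.6 and 1682.3 on GEN. Every CAS array lay above every SPI and GEN array, with CAS 1 only just above GEN 1. SPI minus CAS was -0.35 ± 0.14 (adjusted p = 0.987), and GEN minus CAS was -0.24 ± 0.15 (adjusted p = 0.846). Dtx3l read 590.5, 668.8 and 800.4 on CAS, 429.0, 565.2, 458.7 and 617.9 on SPI, and 532.7, 603.8 and 593.0 on GEN. SPI 5 overlapped the CAS arrays, and SPI minus CAS was -0.41 ± 0.17 (adjusted p = 0.987).

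USP18 removes ISG15 from proteins and damps the type I receptor, and Usp18 is among the genes that interferon induces. It read 485.1, 414.9 and 744.6 on CAS, 336.7, 389.5, 617.4 and 295.1 on SPI, and 548.2, 502.7 and 580.9 on GEN. CAS 3 was highest, SPI 4 was second, and the diets overlapped. For Usp18 SPI minus CAS was -0.43 ± 0.25. Lgals3bp differed by -0.42 ± 0.22 in that comparison, and Ifi35 by -0.01 ± 0.13.

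**Figure D3:**
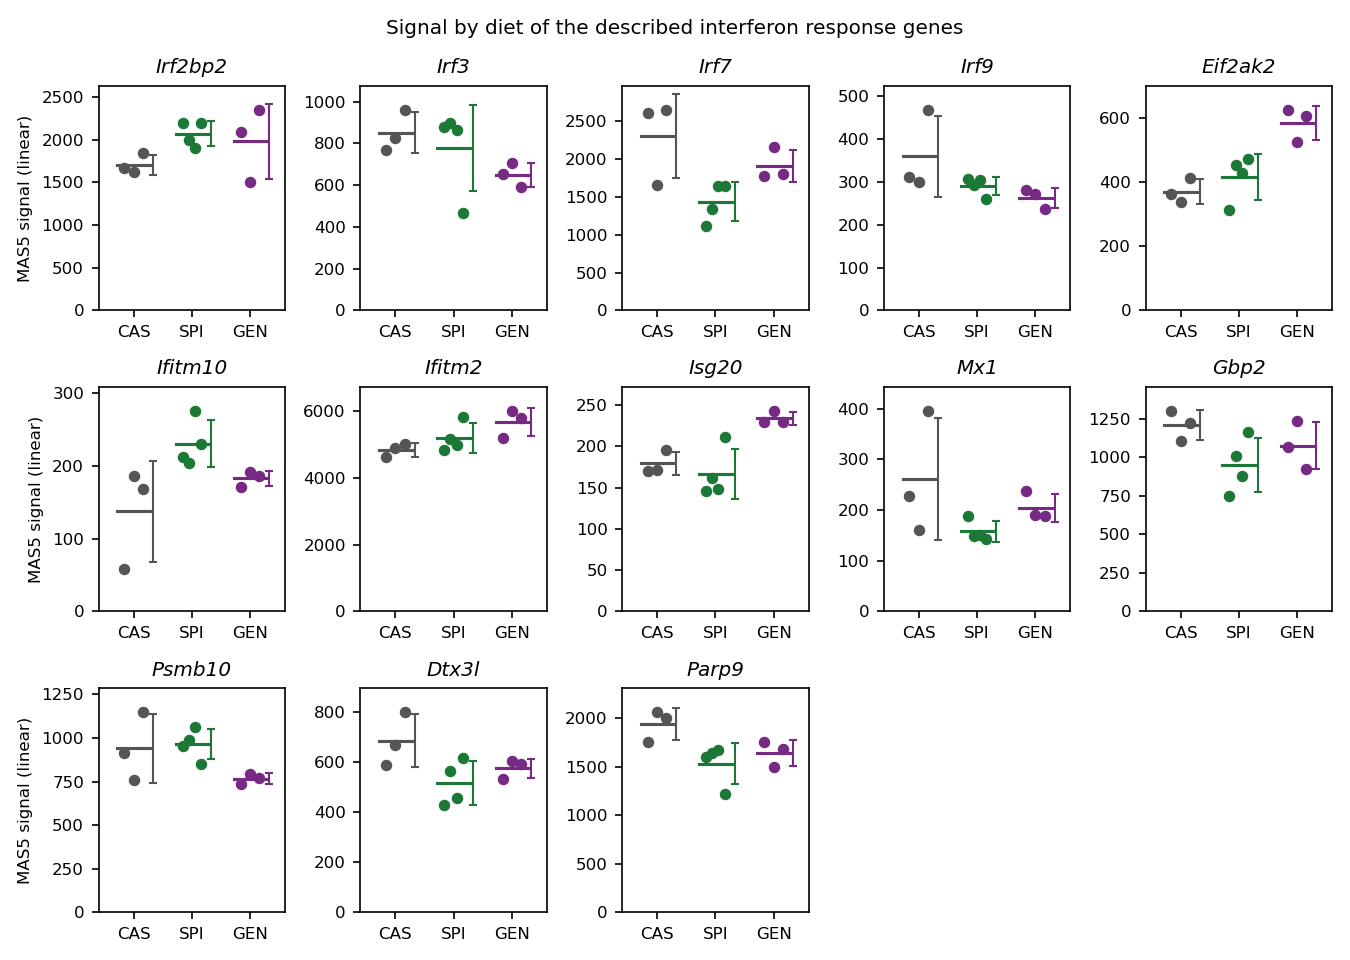
MAS5 signal (linear y axis from 0) of the 13 members that had an unadjusted p under 0.05 or diets without overlap, with a point for each array, a line at the diet mean and a bar for ± SD (n = 3 CAS, 4 SPI, 3 GEN). Eif2ak2 and Isg20 are highest on all GEN arrays, and Irf7 is lowest on all SPI arrays.

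The arrays of a diet also differed from each other. The standard deviation of log2 signal within a diet had a median of 0.28 over members and 0.24 over all tested genes, from 0.09 for Ifi35 to 0.80 for Rsad2. In 13 members the highest array was over 2 times the lowest. Rsad2, encoding viperin, which makes a chain-terminating nucleotide, read 1702.5, 1171.4 and 521.8 on CAS and 354.0, 1007.4, 1674.0 and 935.8 on SPI. On GEN it read 805.9, 870.6 and 524.5. Its highest array was 4.81 times its lowest, on CAS 1 and SPI 2, and the 3 diets overlapped.

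CAS 3 was the highest array for 13 of 37 members (35.1%), while it was highest for 17.9% of all tested probe sets. These 13 included Mx1, Mx2, Irf7, Irf9, Psmb8, Lgals3bp and Usp18. Not all induced genes followed on CAS 3. Ifit1, which binds foreign RNA caps, read 937.8, 750.7 and 394.9 on CAS, and CAS 3 was its lowest array of all. SPI 2 was lowest for 10 of 37 members (27%, against 5.71% of all probe sets), among them Irf7, Eif2ak2, Isg20, Gbp2 and Rsad2. GEN 3 was highest for 7 members (18.9%, against 11.7%). The mean log2 signal of the 37 members was 9.91, 9.81 and 9.99 on CAS, 9.73, 9.78, 9.87 and 9.83 on SPI, and 9.86, 9.96 and 9.81 on GEN, so that the diets overlapped.

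**Figure D4:**
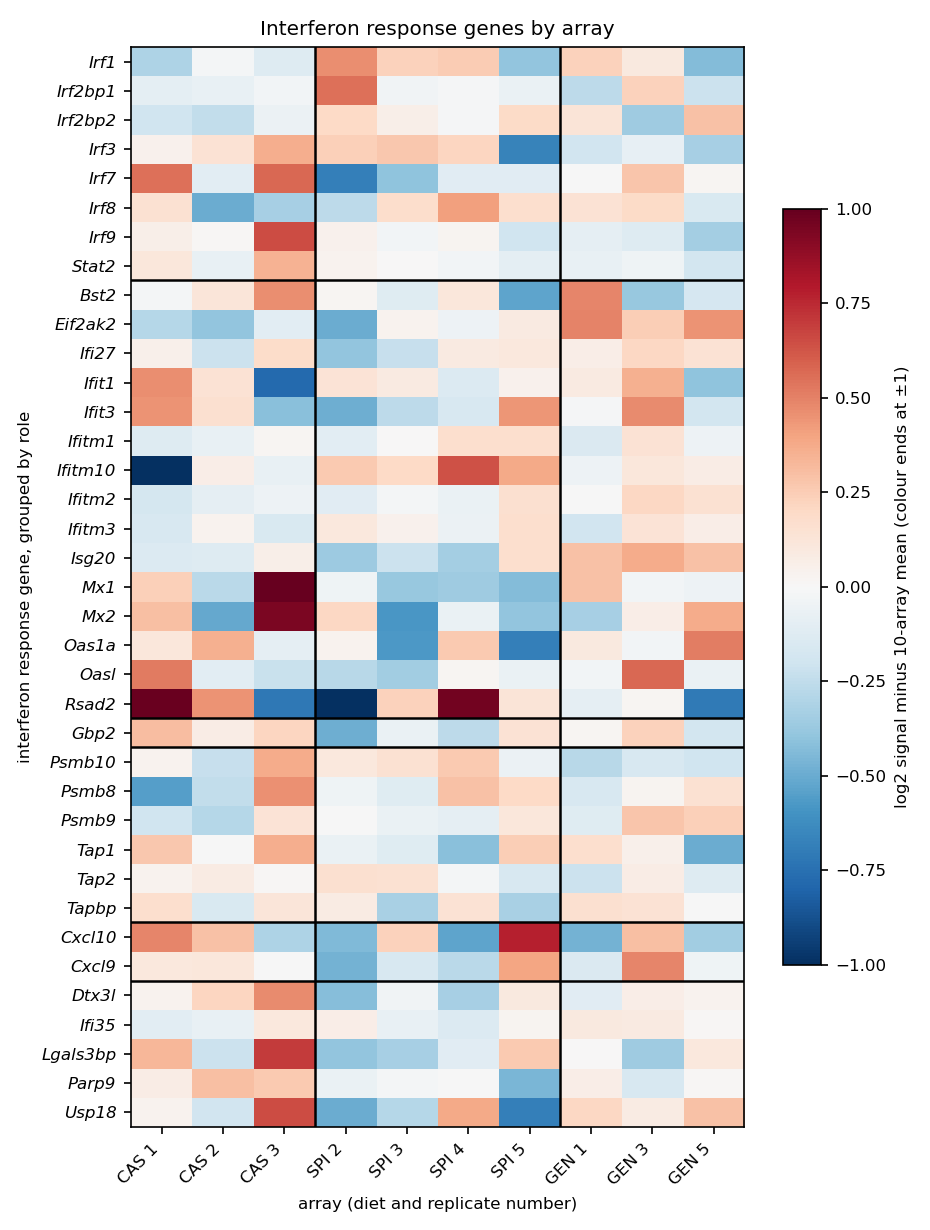
Log2 signal minus the mean over the 10 arrays (colour, ending at ±1) for the 37 tested members in rows and the arrays in columns, with lines between diets and between role groups. CAS 3 is highest in 13 rows, SPI 2 lowest in 10, and Rsad2 spans 4.81-fold.

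The rest of the pathway was read from lists of genes that are no members. No gene of these lists was called in any comparison. Of 13 interferon ligands and receptors, 6 were on the array and 3 were tested, with Ifng, Ifnb1 and Ifnar1 below the filter. Ifnar2, a chain of the type I receptor, read 637.7, 771.1 and 850.5 on CAS, 692.5, 607.7, 733.4 and 663.3 on SPI, and 683.8, 447.4 and 505.8 on GEN. GEN minus CAS was -0.48 ± 0.18 (adjusted p = 0.825), with GEN 1 inside the CAS range. Of 16 genes of JAK and STAT signalling, 12 were on the array and 10 were tested.

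Jak2, the kinase of the interferon gamma receptor and of the prolactin receptor, read 352.9, 272.6 and 258.3 on CAS, 272.3, 207.5, 280.6 and 367.3 on SPI, and 381.8, 440.7 and 392.1 on GEN. The GEN arrays were the highest 3, as they were for Eif2ak2 and Isg20. GEN minus CAS was 0.47 ± 0.21 (adjusted p = 0.825) and SPI minus GEN was -0.55 ± 0.20 (adjusted p = 0.563). Tyk2, the kinase of the type I receptor, was lower on SPI than on CAS without overlap, by a log2 value of -0.29 ± 0.19. Socs3, a feedback inhibitor, was higher on GEN than on CAS without overlap, at 0.43 ± 0.47, and the phosphatase Ptpn11 was lower there at -0.29.

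The list for nucleic acid sensing held 21 symbols, with Rigi and Sting1 also under their older names. Of its genes 7 were tested, and the adaptor Ticam1 alone had no overlap, at -0.28 for GEN minus CAS. All 10 partners of the immunoproteasome on the array were tested, of 11 listed. The MHC light chain B2m was lower on SPI than on CAS without overlap, at -0.25 ± 0.12 (adjusted p = 0.987). The chaperone Calr was higher on both SPI (0.21) and GEN (0.14) than on CAS, and the proteasome activator Psme2 was higher on SPI than on GEN (0.20).

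Markers of several cell types, immune cells among them, lay in the same direction as the SPI difference. In RNA from a mixture of cells, fewer cells of a type and less RNA per cell cannot be told apart. Of 15 macrophage markers on the array, 14 were tested and Itgam was below the filter. All 14 were below 0 for SPI against CAS (median -0.65, 5 at an unadjusted p under 0.05, none called), and 11 were below 0 for GEN against CAS (median -0.43). Their mean log2 signal was 9.96, 9.04 and 10.18 on CAS, 9.09, 8.71, 8.63 and 9.62 on SPI, and 8.85, 9.83 and 9.15 on GEN. It was highest on CAS 3, the array on which the most members peaked, and CAS 2 lay within the SPI range. Of 15 lymphocyte markers 6 were tested, and Cd3d, Cd3e, Cd3g, Cd4, Cd8a and Cd79b were among those below the filter. Of the 6, 4 were below 0 for SPI against CAS (median -0.39), and their mean was 8.44 to 9.03 on CAS, 7.93 to 8.51 on SPI and 8.27 to 8.60 on GEN. Ptprc, which encodes the pan-leukocyte antigen CD45, was lower on SPI than on CAS without overlap at -1.01, and so was the leukocyte GTPase Rac2 at -1.03. The other tested lymphocyte markers overlapped, with Coro1a at -0.73, Cd247 at -0.04, Il2rg at 0.13 and Lck at 0.14. Fibroblast markers were below 0 for SPI against CAS in 9 of 9 (median -0.47) and mast cell markers in 6 of 6 (median -0.61). Other lists went the other way. Endothelial markers were above 0 in 7 of 7 (median 0.20), basal epithelial markers in 5 of 6 (median 0.24) and adipocyte markers in 3 of 5 (median 0.19). Among the basal markers, Myh11, Mylk, Lgals7 and Acta2 stood at 0.39, 0.34, 0.27 and 0.21. The keratins Krt5 and Krt14 stood at 0.08 and -0.08. The part of these cells in the member differences was not tested.

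Luminal epithelial markers stood highest on GEN and lowest on SPI by their medians, with none called. Of 12 tested, 11 were below 0 for SPI against CAS (median -0.30, 3 at an unadjusted p under 0.05). For GEN against CAS 11 were above 0 (median 0.40), and for SPI against GEN 12 were below 0 (median -0.77), with array means from 9.12 on SPI 4 to 10.85 on GEN 5. Basal epithelial markers were above 0 in 5 of 6 for GEN against CAS (median 0.46). Skeletal muscle markers had a mean of 10.37 on CAS 1 and 7.36 to 8.11 elsewhere. The ratio of 3' to 5' signal of actin, which rises as RNA is degraded, ran from 2.83 on GEN 5 to 7.77 on SPI 4, and that of GAPDH from 1.18 to 2.91. The median signal of an array was 222.8 to 256.7. The part of the epithelium, of muscle and of RNA quality in the member differences was not tested either.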

How the data were processed

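The authors deposited a linear signal intensity for each probe set and array. The submitters' processing notes name MAS5 as the tool. The scaling target and the detection calls are not given in the sources used here. From 15923 probe sets, 57 controls were left out. Signals under 1 (0.0637% of values) were set to 1 and log2 was taken. The 40% of probe sets with the lowest mean log2 signal were left out, which leaves 9520. Platform annotation gave 12783 probe sets 1 symbol, 312 several and 2771 none, and only those with 1 named a gene. All 10 arrays entered 1 fit with diet as the factor (lmFit, then eBayes with a trend, of limma 3.58.1 under R 4.3.3, with 7 residual degrees of freedom), with Benjamini-Hochberg adjustment over all 9520. The fit was tested on simulated data with independent arrays and shifts larger than any member difference. That test therefore does not show how smaller differences, or arrays that share a pool, would fare. The brightest probe set stood for a gene.

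The members and lists were chosen with earlier results of these data known. Values on every array were given for members with an unadjusted p under 0.05 or diets without overlap, and for the brightest member of each role. Ifit1, Mx2, Cxcl9, Rsad2, Usp18 and Oas1b were described besides, chosen after their values were seen. The 20 alternatives covered scaling, pseudocount, filter, weights, choice of probe set, replicate block and leaving out each array.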

Additional observations from a re-analysis of the deposited data

Results flagged for a closer look

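In 3 of the 40 members, 1 of the 4 SPI arrays stood far from the other SPI arrays, with a gap to its neighbour above 0.829 of the range. Chance marks about 1 in 20 groups of this size, and the CAS and GEN groups of 3 arrays were too small to examine. Irf2bp1 read 825.0 on SPI 2, a gap of 0.926 of the range. Irf3 read 467.6 on SPI 5, also a gap of 0.926. Parp9 read 1215.1 on SPI 5, a gap of 0.842.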

How the results depend on the processing

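No member was called under any of the 20 alternatives. Among 354 differences of the 13 members with an unadjusted p under 0.05 or diets without overlap, 353 kept their direction and 0 were called. The exception was Ifitm10 for SPI against GEN, at -0.12 with a replicate block where it was 0.32 without. Same-numbered arrays deviated together with r from -0.183 to 0.155, so the numbers were not taken to pair the arrays. The replicate block also gave 0.56 for Ifitm10 in SPI against CAS, and -0.19 for Irf3 and -0.15 for Parp9 in GEN against CAS. Leaving out 1 array at a time moved the median member between -0.19 and -0.05 for SPI against CAS and between -0.11 and 0.04 for GEN against CAS. It gave 0 to 2 called probe sets for SPI against CAS (2 without SPI 2), 0 to 1 for GEN against CAS (1 without CAS 1) and 0 to 1 for SPI against GEN (1 without CAS 2, CAS 3, SPI 2 or GEN 5), none of them a member. GEN against CAS had 2 called probe sets with the lowest 60% left out and 2 with array weights. SPI against GEN had 2 with array weights and 2 with only those diets in the fit. The cause was not tested. Members at an unadjusted p under 0.05 numbered 3 to 7, 1 to 6 and 1 to 7 over the alternatives in the 3 comparisons, and with array weights there were 7 for SPI against GEN. Centring arrays on their median put the median member at -0.08 for SPI against CAS and at -0.04 for SPI against GEN. The medians of all probe sets moved up as well, to 0.060 and 0.057. The number of arrays and pools limits the precision.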
